A study of Mus musculus with 8 samples.

Results

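The receptor rearrangement and surrogate light chain genes described here are *Rag1*, *Rag2*, *Dntt*, *Vpreb1*, *Vpreb3* and *Igll1*. They were taken by gene symbol, and these 6 of the 32285 genes in the count matrices were all detected. Their unique molecular identifiers (UMIs, counts of single captured RNA molecules) were summed in immune cells isolated from the brain, in 8 single-cell libraries that together held 50088 cells. Each library was 1 condition, and WT as well as *App* NL-G-F mice were studied as controls, under acute or chronic colitis and under food allergy. The study compared these groups to learn how inflammation of the gut alters immune cells in the brain of a mouse model of Alzheimer's disease.

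All mice were C57BL/6J, of 16 weeks by the sample labels and 3 months by the study's methods. *App* NL-G-F mice carry a mutated, humanised amyloid-β sequence in their own *App* gene, under its own promoter, so the allele is present in every cell that uses *App*. Control mice drank water. Acute colitis was induced with 2% dextran sulfate sodium (DSS) in the drinking water for 7 days, and chronic colitis with 3 cycles of 2% DSS and water, each for 5 days. Food allergy was induced with ovalbumin, given with an adjuvant in 3 sensitizations and then orally on 7 days. In all groups, mice were perfused, and CD45.2+ cells (the pan-leukocyte surface protein) were sorted from a density gradient of the homogenised brain, so the cells were selected only as leukocytes. Leukocytes inside vessels had been marked by an injected antibody, a label that the matrices do not carry. Cells carried an antibody hashtag, numbered 4 to 7.

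A B cell makes its receptor by cutting and rejoining gene segments. *Rag1* and *Rag2* encode the subunits of the recombinase that cuts the DNA, and *Dntt* encodes terminal deoxynucleotidyl transferase, which adds untemplated bases at the joints. Once the heavy chain gene is joined, the heavy chain is displayed with a surrogate light chain made of the proteins of *Vpreb1* (and of its near copy *Vpreb2*) and *Igll1* (λ5), and this pre-B cell receptor drives cell division. *Vpreb3* encodes a related protein that resides inside the cell and binds immunoglobulin chains during their assembly. In adult mice these steps take place in the bone marrow, and marrow niches in the skull lie beside the borders of the brain.

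In GRCm38 coordinates (GENCODE vM21), *Rag2* (ENSMUSG00000032864, chr2:101624718-101632529, plus strand) and *Rag1* (ENSMUSG00000061311, chr2:101638282-101649501, minus strand) are neighbours 5752 bases apart. *Igll1* (ENSMUSG00000075370, chr16:16860671-16863985, minus strand) and *Vpreb1* (ENSMUSG00000059305, chr16:16868403-16870843, minus strand) are 4417 bases apart. *Vpreb2* (chr16:17980428-17981273, plus strand) lies 1109584 bases from *Vpreb1*. *Dntt* is at chr19:41029275-41059525 (ENSMUSG00000025014, plus strand) and *Vpreb3* at chr10:75943057-75949657 (ENSMUSG00000000903, plus strand). *Vpreb1* and *Vpreb2* transcripts matched at 740 of 766 aligned positions (96.6%), with a run of 196 identical bases, so UMIs of this pair can be assigned to either gene with uncertainty. *Vpreb1* and *Vpreb3* transcripts matched at 48.8% of positions. *Rag1* and *Rag2* lie within *B230118H07Rik* (minus strand), *Vpreb1* overlaps *Top3b* on the opposite strand and *Vpreb3* overlaps the pseudogene *Gm16221*, and reads of overlapping genes may be shared.

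The 250 bases before the RefSeq gene start of *Igll1* and *Vpreb1* are shown because these genes, with *Vpreb2*, had the most alike pattern over cell types in the values below. The sequences are from RefSeq (GRCm38.p6), on the strand of the gene, at chr16:16863986-16864235 (minus strand) for *Igll1*, chr16:16869256-16869505 (minus strand) for *Vpreb1* and chr16:17980315-17980564 (plus strand) for *Vpreb2*. Capitals mark the E-box CAGGTG or its reverse complement CACCTG, the motif bound by E2A, a transcription factor of early B cells.
Igll1: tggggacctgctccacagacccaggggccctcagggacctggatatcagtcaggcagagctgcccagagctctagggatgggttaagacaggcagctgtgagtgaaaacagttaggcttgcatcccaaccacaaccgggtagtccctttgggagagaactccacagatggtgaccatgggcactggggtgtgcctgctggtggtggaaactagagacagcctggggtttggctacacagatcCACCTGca
Vpreb1: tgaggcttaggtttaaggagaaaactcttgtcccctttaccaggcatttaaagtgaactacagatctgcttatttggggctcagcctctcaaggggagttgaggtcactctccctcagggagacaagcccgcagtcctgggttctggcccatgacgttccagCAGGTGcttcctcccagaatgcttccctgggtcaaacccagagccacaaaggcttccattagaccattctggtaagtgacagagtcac
The *Vpreb1* window lies inside the GENCODE span given above, which also holds transcripts that start further upstream, and the *Vpreb2* window, whose letters are not shown, runs into the first exon of the GENCODE transcript. Counted from the RefSeq start, at which each window ends, the motif started 8 bases before it in *Igll1*, 88 in *Vpreb1* and 232 in *Vpreb2*. The windows of *Vpreb1* and *Vpreb2* shared a run of 91 identical bases that holds the motif, and 104 of 106 bases (98.1%) matched around it. *Rag1* also had a match, 135 bases before its RefSeq start, whereas *Rag2*, *Dntt* and *Vpreb3* had none. Of all 32851 promoter windows of this length, 5657 (17.2%) held the motif on either strand. A palindromic EBF1 motif, searched likewise, was in none of the 7 windows and in 0.779% of all windows.

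Each condition was 1 library, so that library and condition cannot be told apart. Libraries held 4874 to 7199 cells with a median of 2777 to 4130 UMIs per cell, from 26988646 to 56307389 UMIs in all barcodes, and 1482 of 48572 distinct cell barcodes occurred in more than 1 library. Replicates are the cells that carry the same hashtag in a library. There were 30 such hashtag groups (none for hashtag 6 in WT food allergy and *App* NL-G-F acute colitis), which are not called mice here because the labels do not tie a hashtag to an animal, and p-values measure only the spread between them. With chronic colitis the *App* NL-G-F library held 4 hashtag groups but 2 mice by the study's text, so that some hashtag groups may share an animal and p-values may be too small. The WT control library stood apart. In developing B cells, the summed CPM (UMIs of a gene divided by all UMIs of the cells and scaled to 1000000) of 5 short ribosomal protein mRNAs was 3264 there, 9150 in WT food allergy and 12251 to 16379 in the other 6 libraries. The genotype contrast is repeated without both control libraries, as a count of genes called. Group means and the stage tests are given with and without the WT control library. Contrasts against WT control cannot be made without it.

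Cells were clustered without the 6 genes and *Vpreb2*, and clusters were named from marker genes, so that names such as developing B stand for cells that are developing B-like. The developing B cells numbered 4616 and had *Cd79a*, a subunit of the B cell receptor, at 2219 CPM (92.0% of cells with a UMI) and *Ebf1*, a B lineage transcription factor, at 1289 CPM (89.7%). *Ms4a1* (CD20, a protein of later B cells) was at 97.3 CPM in developing B cells and 2039 CPM in the 7259 mature B cells. *Cd3e*, a T cell receptor subunit, was at 70.5 CPM (5.94% of cells) in developing B cells and 1246 CPM (91.4%) in the 9072 T cells. *Kit*, the receptor of stem cell factor, was at 6.35 CPM in developing B cells and 197 CPM in the 898 progenitor cells. At least 3 UMIs of pan-B genes were found in 91.9% of developing B cells, 99.6% of mature B cells, 7.35% of progenitor cells and 0.970% of T cells. The share was 99.9% in the cluster of 2722 developing B cells, of which 3.12% were cycling (defined with the stages). It was 80.5% in the other cluster of 1894 cells, of which 95.7% were cycling. The label thus held for most developing B cells but less often for cycling ones. Stage differences are also given for cells with at least 3 pan-B UMIs, and the part of the rest in other results was not tested. Of the developing B cells, 346 (7.50%) had no UMI of any of the 6 genes. Markers of other cells were also present, with a summed CPM by library of 154 to 403 for 9 T cell genes, 43.1 to 1298 for 9 myeloid and erythroid genes (1 to 3 of them at 0), 169.8 to 569.5 for 8 mature B genes and 10.9 to 34.2 for 6 progenitor genes, and their part in the results was not tested. Of the 346 cells, 38 had 3 pan-B UMIs or more and 15.9% carried several hashtags, against 5.22% of all developing B cells.

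Developing B cells were found in all 8 libraries. They made up 14.8% of cells in WT control (1038 cells), 4.55% with acute colitis (222), 10.0% with chronic colitis (563) and 7.33% with food allergy (399). In *App* NL-G-F mice they made up 11.4% of cells in control (798), 2.32% with acute colitis (167), 10.96% with chronic colitis (668) and 11.1% with food allergy (761). These shares were carried by few hashtag groups. In WT control, hashtag 5 held 915 of the 1038 cells (44.2% of its cells), against 8.08%, 0.244% and 0.364% in hashtags 4, 6 and 7. In *App* NL-G-F control, the share was 33.7% in hashtag 5 and 8.70%, 2.41% and 0.759% in hashtags 4, 6 and 7.

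*Rag1* and *Rag2* were found almost only in developing B cells. *Rag1* was at 110.8 CPM there (95% Poisson interval 106.5 to 115.3, from 2479 UMIs) and *Rag2* at 79.1 CPM (75.4 to 82.8, from 1769 UMIs). These were 90.1% of all *Rag1* UMIs and 90.7% of all *Rag2* UMIs. A *Rag1* UMI was present in 32.6% of developing B cells and a *Rag2* UMI in 25.1%. By library, *Rag1* in developing B cells was at 159 CPM in WT control, 72.5 with acute colitis, 109 with chronic colitis and 72.6 with food allergy in WT mice, and at 131, 92.8, 101 and 92.2 CPM in *App* NL-G-F mice in that order. The same libraries had *Rag2* at 98.0, 50.4, 64.6 and 48.8 CPM in WT mice and 102, 37.1, 74.6 and 86.5 CPM in *App* NL-G-F mice. Both control libraries were thus at the top of the range for both genes when cells were pooled by library. Hashtag 5 gave 915 of the 1038 developing B cells of WT control and 572 of the 798 of *App* NL-G-F control. By hashtag group, the highest *Rag1* was in *App* NL-G-F chronic colitis, at 198 CPM, and the control groups ranged from 102 to 161 CPM. Mature B cells had *Rag1* at 1.98 CPM and *Rag2* at 0.861 CPM, progenitor cells 2.64 and 4.09 CPM, and T cells 0.833 and 0.145 CPM.

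*Dntt* was the only one of the 6 genes that was higher in progenitor cells than in developing B cells over the pooled libraries. It was at 222.4 CPM in progenitor cells (213.6 to 231.4), 126.4 CPM in developing B cells (121.8 to 131.2) and 57.4 CPM in plasmacytoid dendritic cells, and these 3 classes held 37.2%, 43.0% and 12.2% of its UMIs. The plasmacytoid class was led by its own markers (*Siglech*, *Cox6a2*, *Klk1*, *Bst2*) and by markers of type 2 conventional dendritic cells (*Cd209a*, *Clec10a*, *Mgl2*). Its values are therefore those of a mixed class. *Dntt* RNA was concentrated in few cells, since a UMI was present in 7.19% of developing B cells, 24.5% of progenitor cells and 18.8% of plasmacytoid dendritic cells. Median depth was 2538.5 UMIs in developing B cells, 9588 in progenitor cells and 6264 in plasmacytoid dendritic cells, and with each cell thinned to 2000 UMIs the shares were 8.43%, 17.1% and 10.9%. The thinning left out 1556 developing B cells below that depth. By library, progenitor *Dntt* was at 347 CPM in WT control, 215 with acute colitis, 279 with chronic colitis and 336 with food allergy in WT mice, and at 192, 159, 173 and 240.3 CPM in the same order in *App* NL-G-F mice. In developing B cells, the corresponding values were 120, 94.6, 92.8 and 97.0 CPM in WT mice and 199.6, 99.8, 65.9 and 171 CPM in *App* NL-G-F mice. Progenitor cells were above developing B cells in 7 of the 8 libraries, and in *App* NL-G-F control the values were 192 and 199.6 CPM. Mature B cells (0.203 CPM) and T cells (0.145 CPM) were near 0.

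*Vpreb1* and *Igll1*, the components of the surrogate light chain, were at 314.0 CPM (306.7 to 321.4) and 502.9 CPM (493.6 to 512.3) in developing B cells. A UMI was present in 17.0% of these cells for *Vpreb1* and 17.9% for *Igll1*, fewer than for *Rag1*, although their CPM was higher. *Vpreb2* was at 36.8 CPM. By library, *Igll1* was at 338 CPM in WT control, 304 with acute colitis, 414 with chronic colitis and 512 with food allergy in WT mice, and at 762, 486, 383 and 674 CPM in *App* NL-G-F mice in that order. *Vpreb1* in the same order was at 181, 172, 267, 277, 502, 211, 233 and 464 CPM. The *App* NL-G-F control and food allergy libraries were the highest for both genes. Progenitor cells had *Vpreb1* at 18.3 CPM (5.01% of cells) and *Igll1* at 17.1 CPM (2.67%). Of the 24 progenitor cells with *Igll1*, 95.8% had at least 3 pan-B UMIs and 20.8% carried several hashtags, and the progenitor cluster of the finer clustering had *Vpreb1* at 4.52 CPM and *Igll1* at 1.84 CPM. Mature B cells had 1.01 and 0.861 CPM.

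*Vpreb3* differed from the other 5 genes in that mature B cells also had it at a high level. It was at 2543.5 CPM in developing B cells (2522.7 to 2564.5) and 1192.5 CPM in mature B cells, and a UMI was present in 91.7% and 68.9% of them. By library, developing B cells had 3240 CPM in WT control, 1999.7 with acute colitis, 2512.5 with chronic colitis and 2107 with food allergy in WT mice, and 2676, 2095, 2459 and 2354 CPM in *App* NL-G-F mice in that order. Mature B cells had 951, 1141, 1239 and 1061 CPM in the WT libraries and 1011, 1209, 1499 and 1379 CPM in the *App* NL-G-F libraries. The lowest developing B value was above the highest mature B value. Progenitor cells (31.6 CPM), neutrophils (27.2 CPM), macrophages (23.7 CPM) and T cells (11.4 CPM) were far below both. Mature B cells were themselves uneven. At a finer clustering they fell into a cluster of 3957 cells with *Vpreb3* at 1872 ± 678 CPM (SD, n = 24 hashtag groups) and a cluster of 2995 cells, led by *Ighd* and *Fcer2a* (IgD and CD23, of mature follicular B cells), with 403 ± 181 CPM (n = 22). The first was higher in 21 of the 21 hashtag groups that had both clusters. It had *Ighd* at 67.3 CPM against 258 CPM in the second, and *Cd93*, from the developing B marker list, at 34.3 against 8.96 CPM. Of the same list, *Cd79a* (5757 against 4003 CPM) and *Ebf1* (954 against 728 CPM) were also higher in it, but *Il7r* was lower (22.1 against 47.1 CPM). *Ms4a1*, from the mature B list, was higher in it (2777 against 1169 CPM), so the markers do not place it as less mature. The high level of *Vpreb3* in the mature B class thus lay mainly in the cluster with less *Ighd*.

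**Figure D1:**
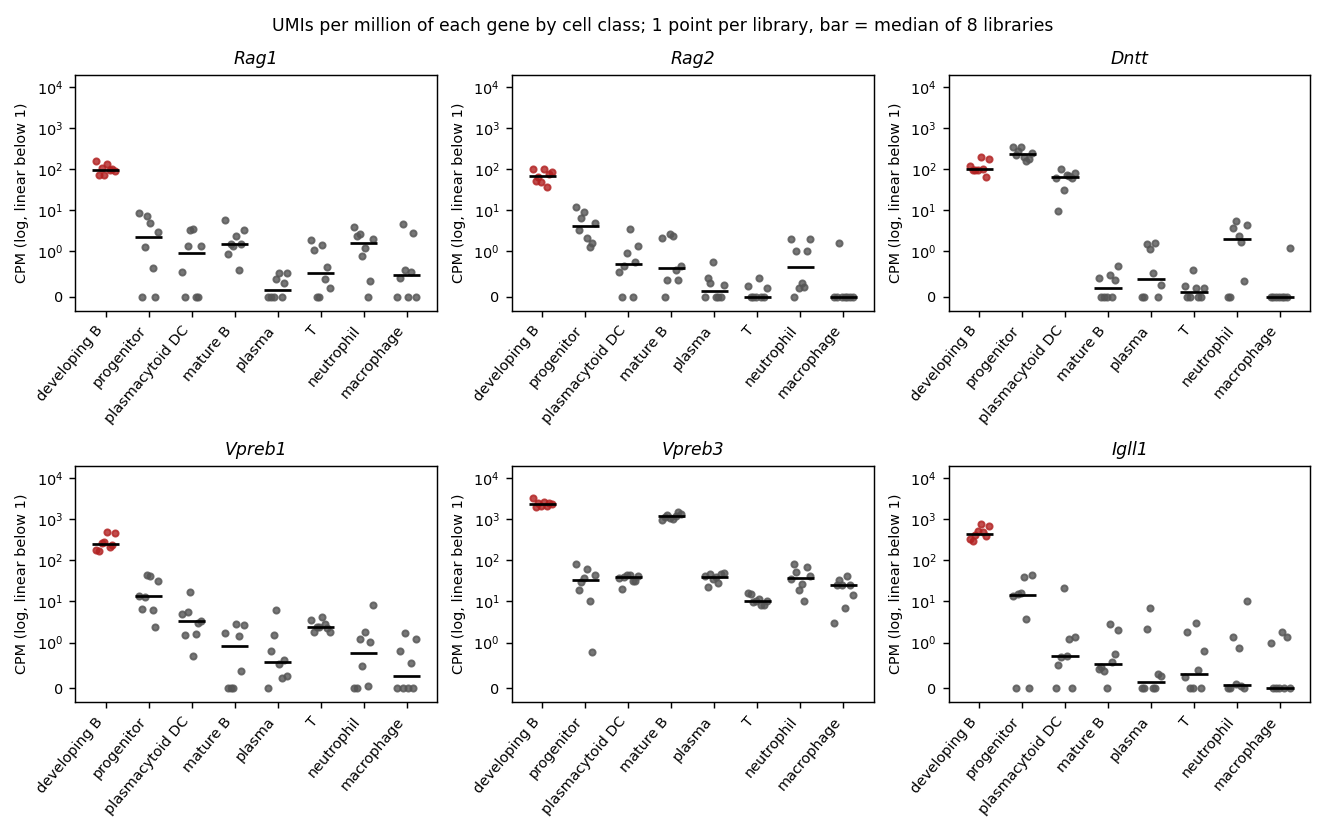
CPM of each of the 6 genes in 8 cell classes; each point is 1 library, the bar is the median of the 8 libraries, and the axis is logarithmic above 1 and linear below. Developing B cells (red) are highest for all genes except *Dntt*, which is highest in progenitor cells, and *Vpreb3* stays high in mature B cells.

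The order of levels between classes is given as a description, with no test. Free RNA from other cells also gives UMIs in cells that do not make it. In droplets without cells, the 6 genes were at 12.4 (*Rag1*), 11.1 (*Rag2*), 32.4 (*Dntt*), 37.2 (*Vpreb1*), 353.5 (*Vpreb3*) and 61.7 (*Igll1*) CPM. In neutrophils, which are not known to use these genes, *Rag1* was at 1.05 CPM, *Rag2* at 0.657, *Dntt* at 2.83, *Vpreb1* at 1.44 and *Igll1* at 1.48 CPM, and their *Vpreb3* was at 27.2 CPM. T cell values of *Rag1*, *Rag2*, *Dntt* and *Igll1* were at or below those of neutrophils and are read as background. Mature B cells had *Dntt* and *Igll1* below the neutrophil values and *Rag1* above it (1.98 against 1.05 CPM). T cells had 23 *Rag1* UMIs in 14 cells. Of these 14 cells, 8 (57.1%) carried several hashtags, against 4.35% of the other T cells, and 78.6% had at least 3 pan-B UMIs.

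Over the 23 hashtag groups with at least 20 developing B cells, the 6 genes varied to different degrees. *Vpreb3* had the smallest spread, from 991 to 3567 CPM with a median of 2441 (mean 2387 ± 612 SD, coefficient of variation 25.6%). *Rag1* ranged from 35.2 to 198 CPM with a median of 109.7 (106 ± 39.4, 37.1%), and *Rag2* from 28.6 to 115 CPM with a median of 68.2 (70.9 ± 28.1, 39.7%). *Igll1* ranged from 4.63 to 1090.3 CPM with a median of 378 (425 ± 280, 66.0%). *Vpreb1* ranged from 0 to 688 CPM with a median of 226 (251 ± 178, 71.1%). *Dntt* was the most variable, from 0 to 318 CPM with a median of 76.3 (95.8 ± 90.1, 94.0%), and 4 of the 23 groups had no *Dntt* UMI among 182359 to 299446 UMIs in all. Without the WT control library (n = 21), the means were 103 CPM for *Rag1*, 69.3 for *Rag2*, 98.7 for *Dntt*, 265 for *Vpreb1*, 2320 for *Vpreb3* and 446 for *Igll1*.

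*Dntt*, *Vpreb1* and *Igll1* varied together over these 23 groups, and so did *Rag1*, *Rag2* and *Vpreb3*. Pearson's r of log2(CPM + 10) was 0.96 for *Vpreb1* with *Igll1* (Spearman's rho 0.92). It was 0.88 for *Dntt* with *Vpreb1* (0.88) and 0.82 for *Dntt* with *Igll1* (0.87). It was 0.67 for *Rag1* with *Rag2* (0.65), 0.70 for *Rag2* with *Vpreb3* (0.71) and 0.58 for *Rag1* with *Vpreb3* (0.70). Between the sets it was −0.30 for *Rag1* with *Igll1* (−0.27), −0.27 for *Rag1* with *Dntt* (−0.22) and 0.14 for *Rag2* with *Dntt* (0.20). With the share of cycling cells, r was −0.76 for *Rag1* (−0.68), −0.59 for *Rag2* (−0.55) and −0.73 for *Vpreb3* (−0.82). These are descriptions over 23 points that share 8 libraries, and total UMIs per group are common to each pair of CPM values.

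The groups also differed in immediate-early genes, which cells switch on within minutes of stimulation or dissociation. Hashtag groups were divided, after their values had been seen, where the total CPM of these genes in T cells had its widest gap (2.29-fold). *Rag1* in developing B cells was at 96.9 to 198 CPM (median 133) in the 10 low groups and 35.2 to 143 CPM (median 73.2) in the 13 high groups. *Rag2* had medians of 103 and 54.0 CPM, and *Vpreb3* 2796 and 2019 CPM. The ranges overlapped for all 3 genes. *Dntt* (61.3 and 82.2 CPM), *Vpreb1* (212 and 228) and *Igll1* (345 and 400.1) had medians in the opposite order. Cycling cells made up 18.8% to 43.2% of developing B cells in the low groups and 35.4% to 75.0% in the high groups, and the part of either in these differences was not tested.

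The question for the conditions was whether developing B cells in the brain had other levels of the 6 genes with colitis or food allergy, or in *App* NL-G-F mice. In WT mice, *Rag1* was at 117 and 161 CPM in the 2 control hashtag groups, 65.3 and 70.6 with acute colitis, 113 and 143 with chronic colitis, and 63.2, 35.2 and 157 with food allergy. In *App* NL-G-F mice, it was at 127, 139.8 and 102 CPM in control, 117, 53.6 and 109.7 with acute colitis, 198, 139, 90.3 and 73.2 with chronic colitis, and 66.2, 93.8, 113 and 96.9 with food allergy. Both WT acute colitis groups were below both WT control groups for *Rag1*, and every other condition overlapped its control. How many of all genes separated in this way was not counted, so the order is not read as particular to *Rag1*. The 2 WT control groups were in the low immediate-early set and the 2 WT acute colitis groups in the high set. Set and condition thus cannot be told apart in that pair. Cycling cells, in which *Rag1* was low (as given with the stages), made up 68.9% and 65.0% of the acute colitis groups and 34.3% and 30.9% of the control groups. Among *Ms4a1*-negative cells alone, *Rag1* was at 464 CPM in the 1 acute colitis group with at least 20 such cells and at 255 and 354 CPM in the control groups. No order is read from 1 group, and the part of cycling cells in the *Rag1* values was not tested.

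*Igll1* was at 23.3 and 378 CPM in WT control, 316 and 400.1 with acute colitis, 484 and 259 with chronic colitis, and 323, 1090.3 and 6.68 with food allergy in WT mice. In *App* NL-G-F mice it was at 519, 932 and 4.63 CPM in control, 654, 442 and 313 with acute colitis, 201, 300.4, 375 and 496 with chronic colitis, and 266, 579, 473 and 935 with food allergy. Single hashtag groups near 0 sat beside groups at 323 CPM or more in WT control, WT food allergy and *App* NL-G-F control. Those 3 groups (WT control hashtag 4, WT food allergy hashtag 7 and *App* NL-G-F control hashtag 6) had no *Dntt* UMI, and *Vpreb1* at 0, 6.68 and 4.63 CPM, while their *Rag1* was at 117, 157 and 102 CPM.

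*Rag2* was at 70.0 and 106 CPM in WT control and 50.6 and 82.4 in WT acute colitis, and at 99.3, 115 and 37.0 in *App* NL-G-F control and 34.6, 33.5 and 49.4 in *App* NL-G-F acute colitis. The last 3 values overlapped only with the lowest control group, hashtag 6, and lay below the other 2. Hashtag 6 had 36 developing B cells, and of its 20 cycling cells 20.0% had a *Vpreb3* UMI, against 74.5% and 98.6% in the other 2 control groups. *Vpreb3* was at 2763 and 3406 CPM in WT control, 2161 and 1509 with acute colitis, 2677 and 2559.8 with chronic colitis and 2019, 1614.5 and 3567 with food allergy. Both groups of WT acute colitis and both of WT chronic colitis were below both WT control groups for *Vpreb3*. All 4 colitis groups were in the high immediate-early set. The share of all genes with such an order was not counted, so it is not read as particular to *Vpreb3*. Cycling cells made up 40.3% and 38.2% of the chronic colitis groups. Among *Ms4a1*-negative cells, *Vpreb3* was at 4954 CPM in acute colitis (1 group), 4839.5 and 5219 CPM in chronic colitis and 4577 and 5059 CPM in control. The part of cycling cells in the *Vpreb3* values was not tested. The summed CPM of the 9 myeloid and erythroid genes was 43.1 in the WT control library and 1298 in WT chronic colitis, with 2 of the 3 tested called as higher by edgeR, and its part in the *Vpreb3* values was not tested. In *App* NL-G-F mice *Vpreb3* ranged from 991 to 2962.5 CPM in control, 1887 to 2829.6 with acute colitis, 2184 to 3098.5 with chronic colitis and 1901 to 2645 with food allergy, so all 3 treated groups lay inside or overlapped the control range.

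**Figure D2:**
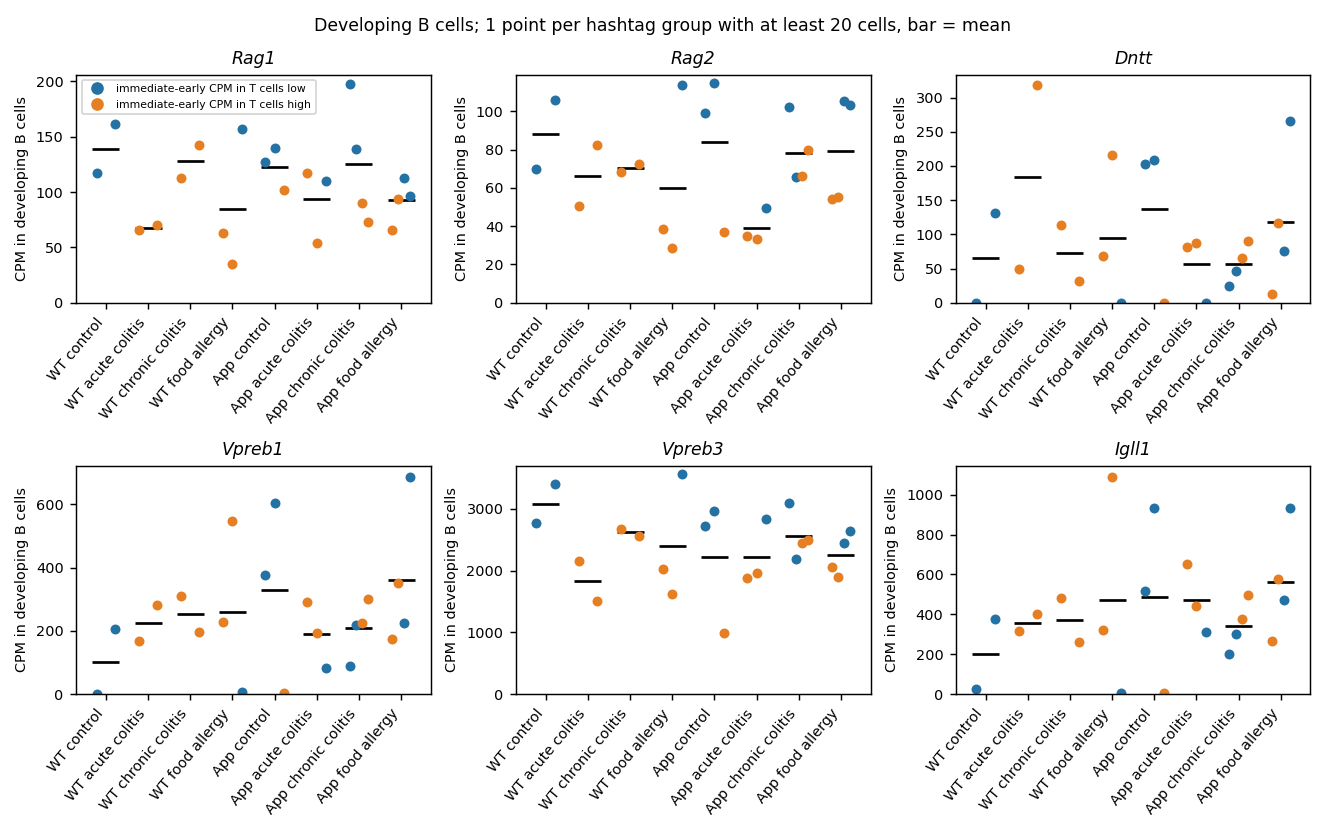
CPM of each gene in developing B cells by condition; each point is 1 hashtag group with at least 20 developing B cells, the bar is the mean, and blue and orange mark low and high immediate-early CPM in T cells. Most conditions overlap their control for every gene, and WT acute colitis lies below WT control for *Rag1* and *Vpreb3* and WT chronic colitis for *Vpreb3*. How many of all genes separate likewise was not counted. *Dntt*, *Vpreb1* and *Igll1* have groups at or near 0 beside groups far above them.

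The 23 groups were compared with edgeR's quasi-likelihood test on summed UMIs of 7836 genes, with Benjamini-Hochberg adjustment over all of them and a threshold of 0.05. All 6 genes passed the filter on low counts. None of the 6 passed the test in any of 11 contrasts. Over all genes tested, the share called was 1.54% for *App* NL-G-F control against WT control (121 genes), 1.65% for WT acute colitis against WT control (129), 1.40% for WT chronic colitis (110) and 0.830% for WT food allergy (65). It was 0% for *App* NL-G-F acute colitis against *App* NL-G-F control (0 genes, 342 at an unadjusted p under 0.05), 0.0128% for *App* NL-G-F chronic colitis (1) and 0% for *App* NL-G-F food allergy (0 genes, 145 at an unadjusted p under 0.05). DESeq2 also called 0 genes among the 6 in each contrast. For all *App* NL-G-F against all WT groups the share was 0.919% (72), and for the difference in effect between genotypes it was 0.944% for acute colitis (74), 0.995% for chronic colitis (78) and 0.472% for food allergy (37). At an unadjusted p under 0.05, 1 of the 6 genes passed in 1 contrast, *Rag2* in *App* NL-G-F acute colitis. Contrasts against the same control share its hashtag groups.

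The estimates were as follows. *Rag2* in *App* NL-G-F acute colitis differed from *App* NL-G-F control by −1.21 ± 0.46 (log2 fold change ± SE, 95% interval −2.18 to −0.25, adjusted p = 1 with edgeR). *Rag1* in WT acute colitis differed from WT control by −0.91 ± 0.48 (−1.91 to 0.09, adjusted p = 0.649 with edgeR). *Vpreb3* in WT acute colitis differed by −0.56 ± 0.37 (−1.34 to 0.21, adjusted p = 0.755 with edgeR). Both of these rest on the WT control library, which stood apart. Between *App* NL-G-F and WT control, *Rag1* differed by −0.04 ± 0.41 (−0.90 to 0.83) and *Vpreb3* by −0.32 ± 0.33 (−1.01 to 0.38). The intervals of *Vpreb1* (1.60 ± 1.19, −0.93 to 4.14), *Igll1* (1.30 ± 1.205, −1.26 to 3.87) and *Dntt* (0.98 ± 1.29, −1.77 to 3.73) were much wider, and a difference of several fold in either direction was not detectable with these groups. Over all conditions, *App* NL-G-F minus WT was 0.15 ± 0.21 for *Rag1*, 0.04 ± 0.22 for *Rag2*, −0.16 ± 0.65 for *Dntt*, 0.40 ± 0.56 for *Vpreb1*, −0.03 ± 0.16 for *Vpreb3* and 0.46 ± 0.57 for *Igll1*. Without both control libraries, this contrast called 22 genes, none of them among the 6.

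The call of 0 depended on the filter. With every gene that had at least 1 UMI in the test, 1 to 3 of the 6 genes were called in 10 of the 11 contrasts, with almost the same fold changes. Over all 16786 genes in that test, 61 to 346 were called by contrast, and 287 between the control groups. Between the *App* NL-G-F and WT control groups, for example, *Vpreb1* was called at 1.57 (adjusted p = 8.5e-09 with edgeR), *Igll1* at 1.27 (2.8e-06) and *Dntt* at 0.94 (0.0174). This contrast holds a hashtag group near 0 for each of these genes. Leaving out any 1 hashtag group gave no call among the 6 with the filter in place.

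Developing B cells hold dividing and resting stages, and the 6 genes were compared between them within hashtag groups. Cycling cells (at least 3 UMIs over 17 cell-cycle genes such as *Mki67* and *Top2a*, 1898 cells) were set against non-cycling cells without *Ms4a1* (2282 cells) and with *Ms4a1* (436 cells). In 17 hashtag groups with at least 20 cells of both, *Rag1* was at 30.1 ± 11.3 CPM (SD) in cycling cells and 351.5 ± 66.2 CPM in *Ms4a1*-negative cells. The difference was −3.20 ± 0.10 (SE) on the log2(CPM + 10) scale, and *Rag1* was lower in cycling cells in 17 of 17 groups (two-sided sign-flip permutation test, p = 2e-05, the smallest that 100000 resamples can give). Over all groups with at least 20 cells of a stage, *Rag1* ranged from 12.4 to 53.9 CPM in cycling cells (22 groups). In *Ms4a1*-negative cells (18 groups) it ranged from 209 to 464 CPM. *Rag2* was at 62.2 ± 24.8 and 151 ± 62.5 CPM, a difference of −1.12 ± 0.18, and was lower in 16 of 17 groups (permutation p = 0.00012). *Vpreb3* was at 1752 ± 376 and 4900 ± 388 CPM, a difference of −1.51 ± 0.07, and was lower in 17 of 17 groups (permutation p = 2e-05). The fall in CPM was therefore steeper for *Rag1* than for its partner *Rag2* on this scale, a difference that was not tested. CPM is relative to all UMIs, of which cycling cells held more. The mostly cycling cluster of 1894 cells held 28457 *Vpreb3*, 932 *Rag2* and 481 *Rag1* UMIs. The cluster of 2722 cells held 28448, 837 and 1998. Per cell, only *Rag1* thus had fewer UMIs in the mostly cycling cluster, and the lower CPM of *Rag2* and *Vpreb3* is not fewer UMIs per cell.

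The other 3 genes did not pass this test. *Dntt* was at 70.9 ± 72.0 CPM in cycling and 156 ± 156 CPM in *Ms4a1*-negative cells (−0.84 ± 0.50, permutation p = 0.111). *Vpreb1* was at 218 ± 144 and 413 ± 405 CPM (−0.16 ± 0.49, permutation p = 0.751), and *Igll1* at 392 ± 231 and 494 ± 477 CPM (0.31 ± 0.45, permutation p = 0.510). The p-values are unadjusted, and 18 such tests were made, of 6 genes in 3 pairs of stages. Cycling cells were deeper, with a median of 6900.5 UMIs against 1987 in *Ms4a1*-negative cells. A *Rag2* UMI was present in 30.2% of cycling and 21.9% of *Ms4a1*-negative cells, opposite to the CPM, and no order is read from the shares. For *Rag1* the shares were 17.6% and 44.9%, in the same order as the CPM despite the depth. With the library as the unit, *Rag1*, *Rag2* and *Vpreb3* were lower in cycling cells in 8 of 8 libraries (exact sign-flip test, p = 0.0078), and without the WT control library (15 groups) the differences were −3.28, −1.18 and −1.54.

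The gate mattered for *Rag2* and *Vpreb3*. When developing B cells were taken by marker UMIs in place of clusters, *Rag1* stayed lower in cycling cells (−1.62, in 15 of 18 groups, permutation p = 0.00044), but *Rag2* (0.10, permutation p = 0.755) and *Vpreb3* (0.08, permutation p = 0.849) no longer passed the test, and *Vpreb1* (1.23, permutation p = 0.0184) and *Igll1* (1.91, permutation p = 0.0007) were higher in cycling cells. That gate held 5679 cells, of which 69.0% were in developing B clusters, 8.59% in mature B clusters and 21.6% in clusters of other cell types. Restricted to clustered developing B cells with at least 3 pan-B UMIs (14 groups), the differences were −3.12 for *Rag1*, −0.997 for *Rag2* and −1.29 for *Vpreb3*, each with an exact sign-flip p of 0.000122.

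In cells with *Ms4a1*, the CPM of all 6 genes was below that of *Ms4a1*-negative cells in 4 of 4 hashtag groups. *Rag1* was at 184 against 374 CPM (−1.24), *Rag2* at 52.0 against 193 (−1.69), *Dntt* at 33.2 against 278 (−2.83), *Vpreb1* at 125 against 782 (−3.35) and *Igll1* at 97.2 against 924 (−3.72). *Vpreb3*, at 4709 against 5201 CPM (−0.14), was nearly level. With 4 groups, the exact sign-flip test cannot go below p = 0.125, which all 6 reached. With the library as the unit (6 libraries), the 5 genes other than *Vpreb3* were lower in 6 of 6 libraries (exact sign-flip p = 0.0313, the smallest possible), by −0.96 for *Rag1*, −1.66 for *Rag2*, −3.12 for *Dntt*, −3.93 for *Vpreb1* and −4.28 for *Igll1*, while *Vpreb3* differed by −0.13 (exact sign-flip p = 0.125).

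**Figure D3:**
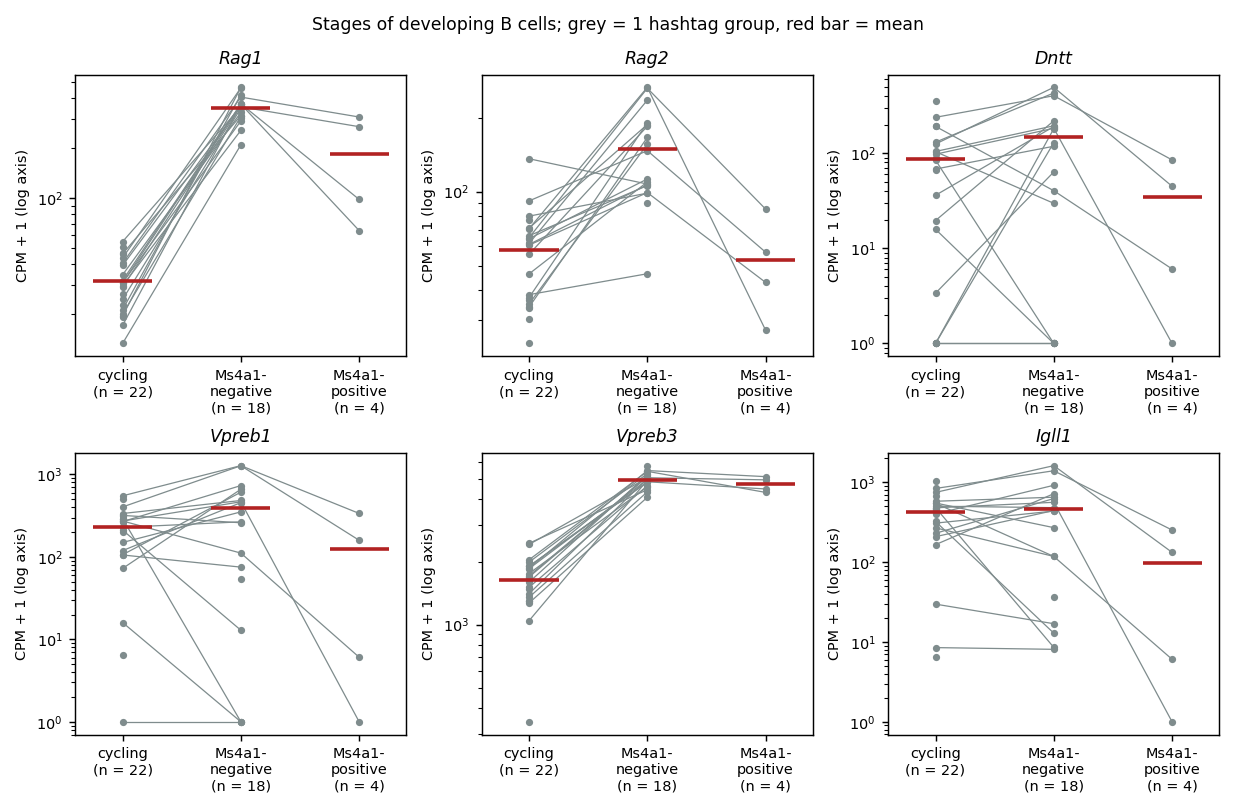
CPM + 1 (log axis) of each gene in 3 stages of developing B cells: cycling, *Ms4a1*-negative and *Ms4a1*-positive; each grey point is a hashtag group, lines join the stages of a group, and the red bar is the mean (22, 18 and 4 groups). *Rag1* and *Vpreb3* rise from cycling to *Ms4a1*-negative cells in every joined group, and *Dntt*, *Vpreb1* and *Igll1* span the widest range.

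A finer clustering, again without the 6 genes, separated the developing B cells into 3 clusters. The smallest (468 cells, 61.1% cycling) had the surrogate light chain at its highest, with *Igll1* at 1626 CPM, *Vpreb1* at 1182 CPM and *Vpreb2* at 143 CPM, and *Dntt* at 496 CPM. *Rag1* was at 112 CPM and *Rag2* at 130 CPM in it. The second (1213 cells, 99.7% cycling) had *Igll1* at 555 CPM and *Vpreb1* at 299.7 CPM, with *Rag1* at 34.9 CPM. In the largest (2694 cells, 2.71% cycling), *Igll1* was at 52.1 CPM, *Vpreb1* at 40.1 CPM and *Dntt* at 8.34 CPM, whereas *Rag1* was at its highest, 314 CPM, and *Vpreb3* at 4638 CPM. This last cluster also held *Il2ra* (CD25) at 166.5 CPM, against 15.6 CPM in the smallest. The 6 genes thus formed 2 contrasting patterns over these clusters, with *Rag1* and *Vpreb3* highest where *Dntt*, *Vpreb1* and *Igll1* were lowest. *Rag2* lay between them, at 130, 69.9 and 107 CPM.

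**Figure D4:**
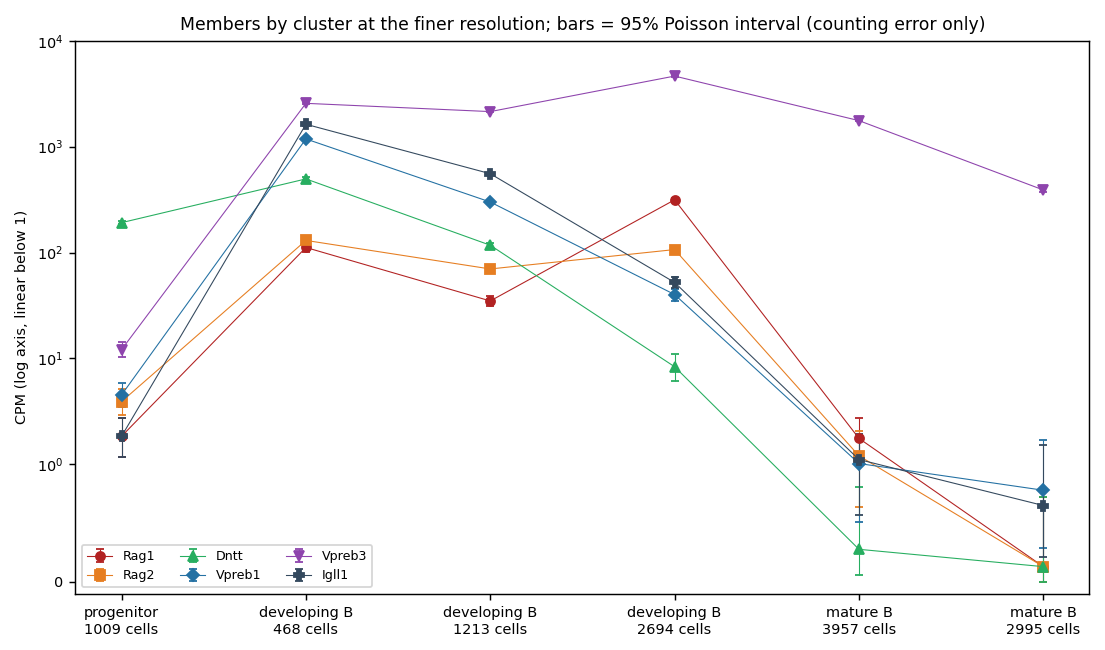
CPM of the 6 genes with 95% Poisson intervals (counting error only) in the progenitor, 3 developing B and 2 mature B clusters of the finer clustering, with the number of cells. *Igll1*, *Vpreb1* and *Dntt* peak in the developing B cluster of 468 cells, *Rag1* and *Vpreb3* in that of 2694 cells.

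In single cells, *Dntt*, *Vpreb1* and *Igll1* were often found together, but *Rag1* was not set apart from them. Of the 4616 developing B cells, 1687 had UMIs of 1 of the 6 genes, 1463 of 2, 694 of 3, 127 of 4, 158 of 5 and 141 of all 6. In 3060 developing B cells thinned to 2000 UMIs, 258 cells had a *Dntt* UMI, and of these 96.1% also had *Igll1* and 93.8% *Vpreb1*, against 11.6% and 9.42% of cells without *Dntt*. Of 573 cells with *Igll1*, 71.7% had *Vpreb1*, against 3.82% of cells without *Igll1*. Of 626 cells with *Rag1*, 29.2% had *Rag2*, against 14.3% of cells without *Rag1*. *Igll1* was present in 18.7% of cells with *Rag1* and in 18.7% of cells without it, and *Vpreb1* in 19.6% and 15.7%. *Dntt* was present in 15.8% of cells with *Rag1* and 6.53% of cells without it, and *Rag1* in 38.4% of cells with *Dntt* and 18.8% of cells without it. For *Rag2*, *Igll1* was present in 27.7% of cells with *Rag2* and 16.8% of cells without. These shares pool cells of 8 libraries and carry no test.

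**Figure D5:**
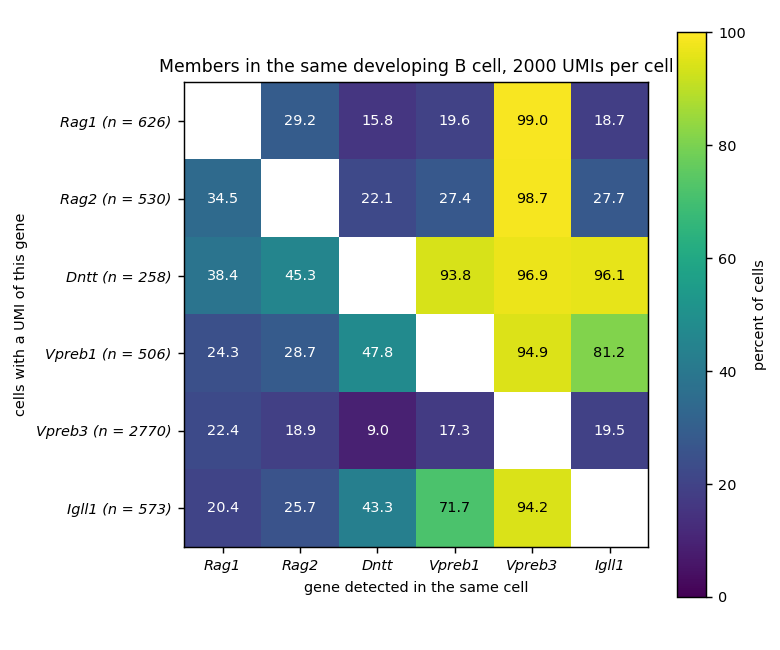
Percent of developing B cells with a UMI of the row gene that also had a UMI of the column gene, after thinning to 2000 UMIs per cell (3060 cells). *Dntt*, *Vpreb1* and *Igll1* form a block of high shares, *Vpreb3* is found with every gene, and *Rag1* with *Igll1* is at 18.7%.

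The partners of *Dntt* depended on the cell class. In developing B cells not thinned, 332 cells had *Dntt*, and 95.5% of them had *Igll1*, 63.0% *Rag1* and 68.7% *Rag2*. Of 220 progenitor cells with *Dntt*, 3.18% had *Igll1*, 6.82% *Rag1* and 13.2% *Rag2*. Of 392 plasmacytoid dendritic cells with *Dntt*, 0.510% had *Igll1* and 0.765% *Rag1*. *Dntt* was therefore detected largely without the other 5 genes outside developing B cells. The reverse did not hold for the *Rag* genes in progenitor cells. Of the 16 progenitor cells with *Rag1*, 15 had *Dntt*, and of the 30 with *Rag2*, 29 did. At least 3 pan-B UMIs were present in 56.3% and 13.3% of these cells.

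The other genes of the pathway were taken from 4 lists, and the genes named from them here, apart from *Hmgb2*, were chosen after their values were seen. Of 13 genes of V(D)J end joining, 6 were at their highest among the 4 main classes in developing B cells. *Xrcc6* (Ku70, which binds broken ends) was at 318 CPM in developing B cells and 28.3 CPM in mature B cells, and *Lig4*, the ligase of the pathway, at 45.5 and 9.22 CPM. Of 17 B lineage transcription factors, 8 were highest in developing B cells, among them *Ebf1* (1289 against 852 CPM in mature B cells), *Sox4* (467 against 61.6) and *Myb* (404 against 23.4). Of 11 partners and signalling genes of the pre-B cell receptor, 1 was highest there, and *Cd79a* was at 2219 CPM against 4900 CPM in mature B cells. Of 9 genes of the interleukin-7 receptor pathway, which supports early B cell growth, none was, and *Il7r* was at 473 CPM against 816 CPM in T cells.

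Of these lists, 10 of 13, 17 of 17, 11 of 11 and 9 of 9 genes were tested across the 11 contrasts. A single gene passed in a single contrast. *Hmgb2*, a DNA-bending cofactor of the recombinase that is also abundant in dividing cells, was higher in WT acute colitis than in WT control by 0.87 ± 0.20 (adjusted p = 0.0175 with edgeR), a contrast that rests on the WT control library. *Hmgb2* was at 3988 CPM in cycling and 275 CPM in *Ms4a1*-negative developing B cells.

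The genes whose levels were most like those of each gene were found over 128 points (cell class and library), by Pearson's r of log2(CPM + 10), as a description. Nearest to *Rag1* were *Rag2* (0.97), *Lgr5* (0.96), *P2rx3* (0.96), *1810059H22Rik* (0.96) and *2310008N11Rik* (0.96), and nearest to *Rag2* were *Rag1* (0.97), *P2rx3* (0.96), *1810059H22Rik* (0.96), *Vpreb2* (0.95) and *Vpreb1* (0.95). Nearest to *Igll1* and to *Vpreb1* were each other (0.98) and then *Vpreb2* (0.97 with both), *Rag1* and *Rag2*. *Dntt* had no equally close partner, with *Arpp21* (0.86), *2610307P16Rik* (0.85), *Epb41l4b* (0.83), *Drc7* (0.82) and *Myl10* (0.81) nearest. Among the genes nearest to *Vpreb3* were *Fam129c* (0.92), *Cd79b* (0.92), *Pax5* (0.92) and *Gm47730* (0.91), and *Cd79b* and *Pax5* are genes of the whole B lineage.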

How the data were processed

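Brain CD45.2+ cells of 8 conditions were measured in 8 libraries of the 10x Genomics 5′ kit. The authors made the deposited counts, UMIs per gene and barcode, with Cell Ranger on mm10 (the submitters' processing notes name version 6.1.2, while the file headers name Cell Ranger 4). The matrices were unfiltered. Receptor sequences were not used here.

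Cells were called with 3000 expected cells and, for barcodes of at least 500 UMIs, against empty droplets at a false discovery rate of 0.01 with 1000 simulations. As in the study, cells with under 200 genes or over 5% mitochondrial UMIs were dropped. Leiden clustering (resolution 0.5, 2000 variable genes of which 7 were left out, 30 components, 20 neighbours) was run, and clusters were named from fixed markers. Cells were assigned to hashtags, and those with several or none entered no hashtag group. A Scrublet doublet caller marked under 0.06% of cells and was not used. Hashtag groups with at least 20 cells of a class were kept as replicates. CPM is the UMIs of a gene over all UMIs of the class, scaled to 1000000. Intervals are exact at 95% and, as Poisson or binomial intervals, cover counting error only.

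Summed UMIs were tested with edgeR 4.0.16 in R 4.3.3 (quasi-likelihood, 7836 of 16786 genes after the low-count filter, 23 groups, summed UMIs of 182359 to 3301589 per group). Stages were compared by sign-flip tests of log2(CPM + 10). The edgeR step was tested on simulated data. Alternatives were other cell calling, marker gates, clustering, normalization, filters, pseudocounts, thinning, DESeq2 1.42.0 and leaving out groups. The other steps ran in Python 3.11.15 (scipy 1.17.1, numpy 2.4.6, leidenalg 0.10.2, matplotlib 3.10.9). The genes, lists and tests were chosen with earlier results of these data known. The text names all 6 genes, *Vpreb2*, the genes most correlated with each (up to 5) and list genes called in a contrast. The link of hashtags to mice is not given in the sources used here, and the study states fewer mice than hashtag groups for *App* NL-G-F chronic colitis.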

Additional observations from a re-analysis of the deposited data

How the results depend on the processing

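No paired analysis between conditions was possible because the labels give no replicate numbers, and hashtag numbers are shared between libraries without a stated link. Only the stage tests were paired, within hashtag groups or libraries. Doublet calling marked too few cells to serve as an alternative and was not run as one.

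Stage tests of cycling against *Ms4a1*-negative cells called 3 genes. With marker gates, *Rag2* (0.10), *Dntt* (0.50), *Vpreb1* (1.23) and *Vpreb3* (0.084) changed direction, as did *Vpreb1* with a pseudocount of 1 CPM (0.21), at least 3 pan-B UMIs or resolution 1.0 (0.14 each), and *Vpreb3* between *Ms4a1* stages with marker gates (0.39). Cycling against *Ms4a1*-positive cells called 5 genes by library, 4 with marker gates and 6 at resolution 1.0, and the *Ms4a1* pair 5 under each, against 0 with 4 hashtag groups, where 0.125 is the smallest p. The 2 alternatives with pan-B UMIs and resolution 1.0 for stages, and the contrast without control libraries, were chosen after seeing the data.

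Mean CPM in developing B cells moved to 31.0 for *Rag1* and 1754 for *Vpreb3* with the order-of-magnitude cutoff alone, to 63.0 and 1468 with marker gates, and for *Vpreb3* to 3038 at resolution 1.0 and 3106 after thinning. Mature B *Vpreb3* moved to 601 with that cutoff, and *Dntt* with marker gates to 114 in progenitor and 1.55 in T cells. Thinning to 1000 UMIs or none gave 14.8% and 34.0% for *Rag2* among *Rag1* cells, 62.1% and 81.0% for *Vpreb1* among *Igll1* cells, and 16.6% and 31.7% for *Rag1* among *Igll1* cells; at 1000 UMIs *Igll1* was at 10.5% among *Rag1* and 92.6% among *Dntt* cells.

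Genes called, in the order *App* NL-G-F control, WT acute, *App* NL-G-F acute, WT chronic, *App* NL-G-F chronic, WT allergy, *App* NL-G-F allergy, genotype and the 3 genotype differences in effect, were 287, 346, 102, 237, 116, 245, 61, 193, 216, 228 and 152 with no filter beyond 1 UMI (16786 genes tested), where 3, 3, 3, 2, 2, 2, 0, 1, 2, 3 and 1 of the 6 genes were called. Marker gates gave 53 (WT acute), 60 (WT chronic), 0 (*App* NL-G-F chronic), 30 (WT allergy), 113 (genotype) and 33, 46 and 18 (differences in effect). The immediate-early set as covariate gave 73 (WT acute), 3 (*App* NL-G-F chronic) and 112 (genotype). The order-of-magnitude cutoff gave 1 (*App* NL-G-F acute), 169 (WT chronic), 4 (*App* NL-G-F chronic), 185 (WT allergy, with 1 of the 6 genes, *Rag2* at −1.43), 113 (genotype) and 56 (allergy difference). At least 50 cells gave 11 (*App* NL-G-F acute), 0 (*App* NL-G-F chronic), 45 (genotype) and 158 (acute difference). DESeq2 gave 4 (*App* NL-G-F chronic), 105 (WT allergy) and 56 (allergy difference), RLE size factors 2 and resolution 1.0 0 for *App* NL-G-F chronic, and leaving out both control libraries 22 for genotype.

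Leaving out 1 hashtag group gave, in the same order, 53 to 134, 57 to 148, 0 to 0, 48 to 126, 0 to 3, 21 to 165, 0 to 0, 40 to 112, 43 to 83, 43 to 100 and 12 to 52 genes, with 0 of the 6. Counts moved by over 1.5 times without WT control hashtag 4 or 5, WT acute 4 or 5, WT chronic 6 or 7, WT allergy 5 or 7 and *App* NL-G-F acute 7, and the single *App* NL-G-F chronic call was lost without most groups. The lowest WT counts came without WT control hashtag 5 (57 for acute, 48 for chronic, 21 for allergy), and 165 without WT food allergy hashtag 7. Fold changes of the 6 genes changed sign in 69 of 600 values under other alternatives, where 23 values were called, and in 66 of 1518 with a group left out, where 0 were called. The cause of these shifts was not tested, except that groups near 0 for *Dntt*, *Vpreb1* and *Igll1* and 2 to 4 groups per condition limit what could be detected.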

Other observations

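*Vpreb1* was also found at a low level in T cells. There were 2.88 *Vpreb1* UMIs per *Igll1* UMI in T cells, 8.33 in CD4 T cells, 4.75 in γδ T cells, 1.63 in CD8 T cells and 7.50 in group 2 innate lymphoid cells, against 0.624 in developing B cells and 0.603 in empty droplets. The values of CD4 T cells, γδ T cells and innate lymphoid cells rest on 3, 4 and 2 *Igll1* UMIs. *Vpreb1* was present in 65 T cells, of which 6.15% carried several hashtags and 6.15% had at least 3 pan-B UMIs, and in 0.536% to 1.04% of T cells by library. *Vpreb3* was present in 104 T cells, of which 35.6% carried several hashtags. The level of *Vpreb1* in T cells was 2.72 CPM, against 5.00 CPM in plasmacytoid dendritic cells, 3.28 in NK cells, 1.90 in neutrophil precursors, 1.74 in monocytes, 1.44 in neutrophils and 1.18 in group 2 innate lymphoid cells, so it was not above that of every other class.

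*Dntt* was found in the plasmacytoid dendritic class of all 8 libraries, at 9.59 to 101 CPM and in 5.05% to 29.0% of cells. This class of 2081 cells was also led by markers of type 2 conventional dendritic cells, so these values depend on its mix in each library. At the finer clustering, a plasmacytoid dendritic cluster of 827 cells had *Dntt* at 86.6 to 201.5 CPM by library, in 34.4% to 52.3% of its cells. WT acute colitis was the lowest library in both clusterings.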
